A study of Mus musculus with 9 samples.

Results

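Acetaminophen (APAP) is a pain and fever drug that injures the liver in overdose. Hepatocytes, above all those near the central vein, oxidise it through cytochrome P450 enzymes to a reactive quinone imine, which glutathione neutralises until glutathione runs out. The surplus metabolite then binds proteins, many of them mitochondrial, and dying hepatocytes draw in neutrophils and monocytes while surviving cells switch on stress and repair genes. Liver messenger RNA was compared here between mice given APAP and mice given vehicle, with attention to genes and functions outside the well known lists for this injury, such as drug metabolism, oxidative stress, immediate early and inflammatory genes.

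The comparison used 6 of the 9 livers of the series, 3 labelled APAP and 3 labelled vehicle, and all 12202 gene symbols of 24541 that averaged at least 0.5 FPKM over the 9 livers. The livers came from Balb/c mice aged 9 weeks. The remaining 3 livers carry the label LRH1+APAP, after a nuclear receptor found in hepatocytes, and entered only the expression floor and the estimate of the spread. The dose, the route, the interval between treatment and collection, the sex of the mice and any pooling are not stated in the labels. FPKM scales the fragments of a transcript by its length and by the mapped fragments of the library, so each value is a share of its library. Differences below are log2(APAP) minus log2(vehicle) after adding 1 to each FPKM, except where a ratio of means is given. The added 1 makes the change of weakly expressed genes look smaller than it is. Each p is from limma and is adjusted over all genes tested, and a gene was called higher or lower in APAP livers at an adjusted p under 0.05.

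The libraries themselves differed. Between 10926 and 11207 genes exceeded 1 FPKM in APAP livers, against 10211 to 10368 in vehicle livers. The 100 genes most abundant in the vehicle group took up 43.38 to 46.99 percent of all FPKM in APAP livers and 54.1 to 55.12 percent in vehicle livers. The APAP livers also differed more among themselves, with a root mean square deviation from their group mean of 0.296, 0.284 and 0.165 on the log2 scale in livers 1 to 3, against 0.149, 0.136 and 0.149 in vehicle livers. Read depth is unknown, since the deposited values are not counts. The 5 hepatocyte markers summed to 42500 to 44300 FPKM in APAP livers and 46700 to 51300 FPKM in vehicle livers, so both groups read as liver.

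Of the 12202 genes, 5835 were higher in APAP livers (47.8%) and 1845 lower (15.1%). At a change of at least 2-fold, 1207 were higher (9.89%) and 355 lower (2.91%). These shares depend on scale, because the median gene itself was 0.25 higher in APAP livers on the log2 scale. When each library was rescaled so that its median gene ratio was 1 (median-ratio scaling), the median difference was 0.01 and 3526 genes were higher (28.9%) and 3500 lower (28.7%). All 1845 lower calls and 3526 of the 5835 higher calls held after this rescaling. Higher calls therefore made up 76 percent of calls as deposited, 54.9 percent with upper-quartile scaling, 50.2 percent with median-ratio scaling and 45.8 percent with quantile normalization. For each function list described below, both the counts as deposited and those after median-ratio scaling are given.

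The shift followed expression level. Among the 4255 genes averaging 5 to 20 FPKM, 2215 were higher and 557 lower, with a median of 0.28. Among the 607 genes averaging 100 to 1000 FPKM, 205 were higher and 233 lower, with a median of -0.07. The 70 genes at 1000 FPKM or above had 24 higher and 25 lower members and a median of -0.10, and together they summed to 244334 FPKM in APAP livers and 276866 FPKM in vehicle livers. The most abundant transcripts thus held a smaller share of APAP libraries, and the middle and low range a larger share. Whether the weaker genes also gained RNA per cell cannot be told apart from this loss of share at the top. In these bulk livers fewer cells of a type and less RNA per cell cannot be told apart either.

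**Figure D1:**
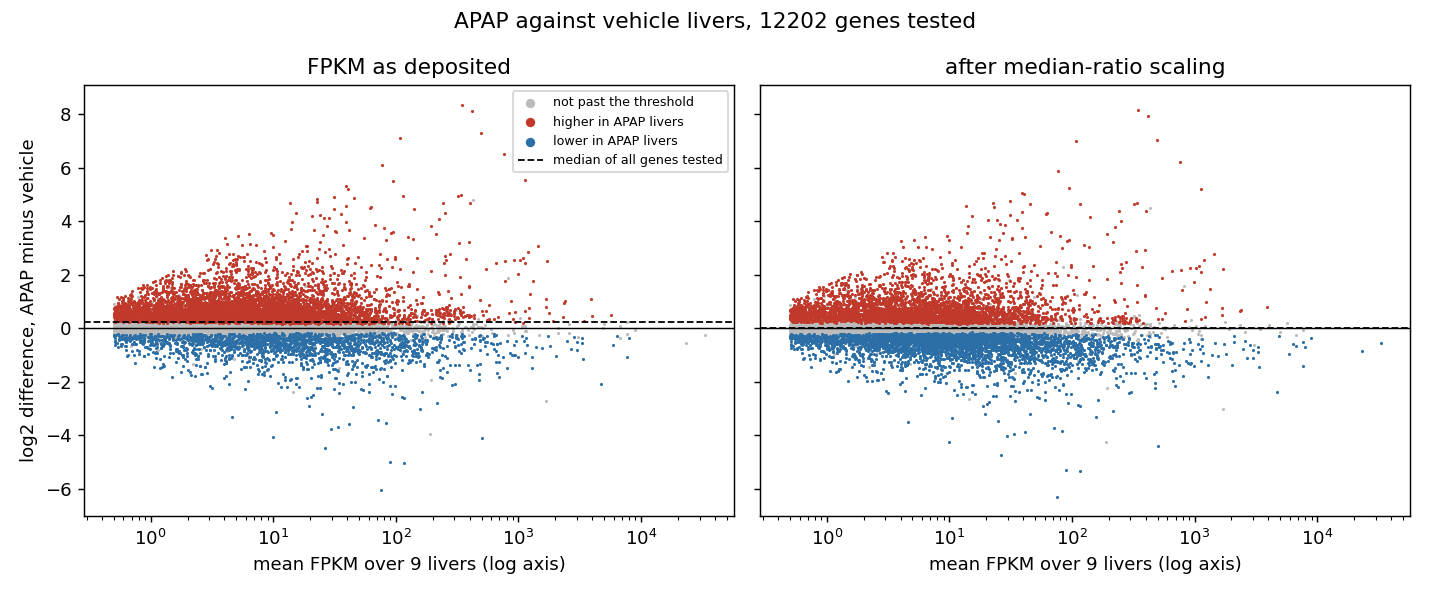
Each point is 1 gene, with its mean FPKM over 9 livers on the horizontal log axis and its log2 difference, APAP minus vehicle, on the vertical axis, for FPKM as deposited (left) and after median-ratio scaling (right). Red points passed as higher and blue points as lower in APAP livers. The dashed line marks the median of all genes, 0.25 on the left and 0.01 on the right.

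The largest absolute gain was in Apoa4, an apolipoprotein of triglyceride-rich particles, with 1891, 4537 and 3473 FPKM in APAP livers, against 287, 386 and 438 FPKM in vehicle livers (log2 difference 3.08, adjusted p = 0.000165). Ftl1, the ferritin light chain, held 4941, 4489.7 and 4542 FPKM in APAP livers, against 2228, 2183 and 2144 FPKM in vehicle livers (log2 difference 1.09, adjusted p = 2.6e-05). Mt1, a metallothionein, and Hba-a2, an alpha globin gene, were also among the 5 largest gains, with log2 differences of 2.51 and 2.43. The groups did not overlap in any of these 4 genes. Ahsg, the plasma protein fetuin-A, held 6174, 6789 and 7853 FPKM in APAP livers, against 4868, 4735 and 5088 FPKM in vehicle livers, a difference that passed as deposited (adjusted p = 0.00338) but not after median-ratio scaling (adjusted p = 0.164).

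The largest drops in mean FPKM included Cyp2e1, the main oxidase of APAP (-2.07), and Mup9, a major urinary protein (-1.08, adjusted p = 0.000253). Alb, albumin, held 29114, 29869 and 30353 FPKM in APAP livers, against 38329, 34244 and 33379 FPKM in vehicle livers and did not pass as deposited (adjusted p = 0.073), although it passed as lower after median-ratio scaling (-0.56, adjusted p = 0.00411). Its difference changed sign to 0.21 under quantile normalization (adjusted p = 0.282). Gm2083, a further copy from the urinary protein cluster, did not pass as deposited (adjusted p = 0.056). Mup17 had 25.6, 25.8 and 198 FPKM in APAP livers, against 17.1, 153 and 14767 FPKM in vehicle livers, so vehicle liver 3 stood alone, and it did not pass (adjusted p = 0.304). Its difference was -2.73 with all livers and -0.02 without vehicle liver 3. The urinary protein genes are near-identical copies that can trade reads, so values of single copies are uncertain.

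Among genes that passed, changed at least 2-fold, reached a mean of 5 FPKM in either group and did not overlap between groups, 626 rises and 179 falls lay outside the familiar themes and had a descriptive name. A further 41 genes outside the themes have accession-like symbols, and some of them, given further below, changed by as much. The 15 largest rises and falls among the descriptively named genes were taken for a closer description. In every gene of both sets the 3 APAP livers lie apart from the 3 vehicle livers, which the choice itself requires.

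**Figure D2:**
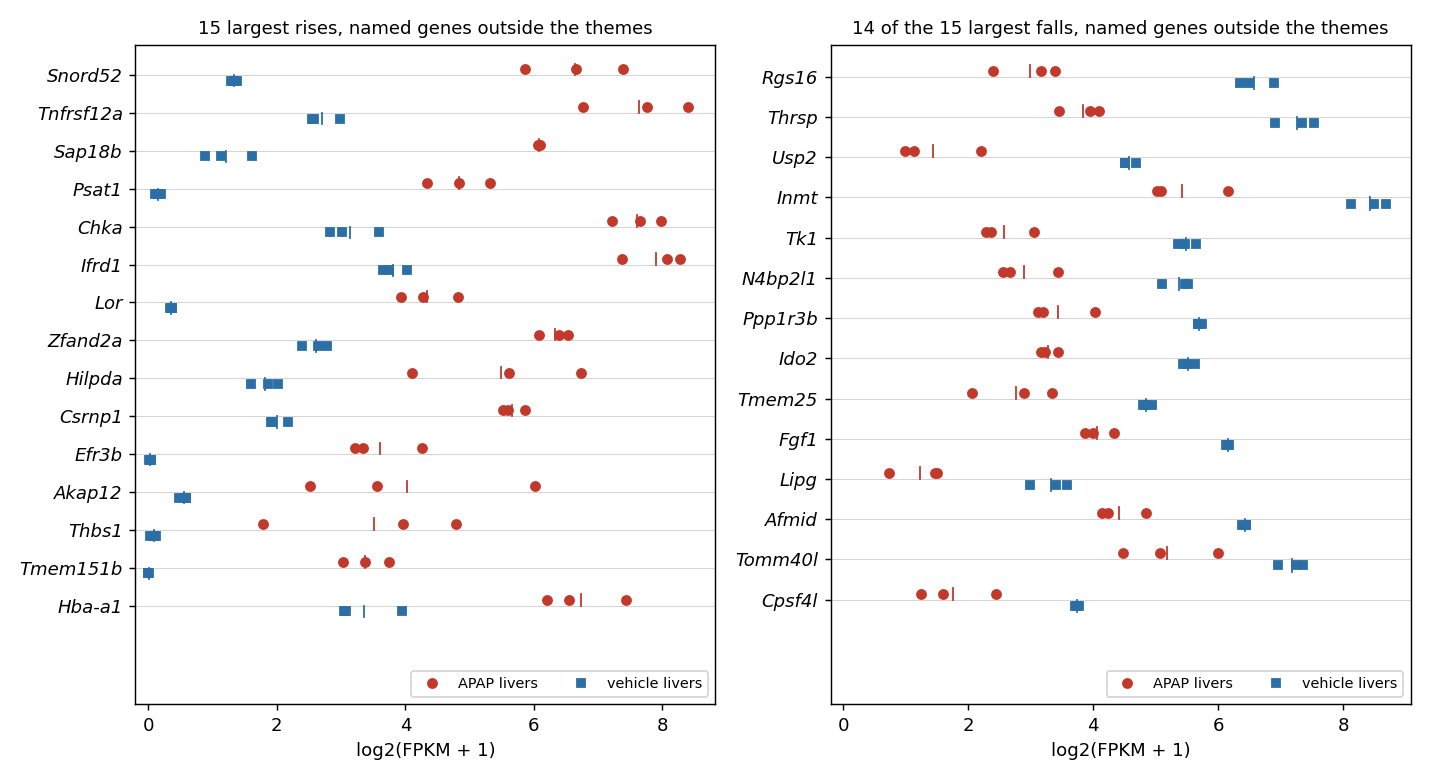
Values of log2(FPKM + 1) in each liver for the 15 largest rises (left) and 14 of the 15 largest falls (right) among descriptively named genes outside the familiar themes, with APAP livers as red circles above vehicle livers as blue squares and ticks at the group means. Spread within the APAP group is widest for Akap12, Thbs1 and Hilpda.

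Several of the largest rises code for receptors and regulators of injury signalling. Tnfrsf12a, the Fn14 receptor for the cytokine TWEAK (chromosome 17, 23675446 to 23677449, mm10), had 107, 338 and 215 FPKM in APAP livers, against 4.86, 6.90 and 4.97 FPKM in vehicle livers (log2 difference 4.93, SE 0.35, adjusted p = 3.06e-05). Each APAP liver stood above every vehicle liver, and APAP liver 2 was the highest. Ifrd1, a transcriptional co-regulator induced in stressed and regenerating tissue (chromosome 12, 40203130 to 40223189), had 164, 309 and 267 FPKM in APAP livers, against 11.6, 12.4 and 15.2 FPKM in vehicle livers (log2 difference 4.10, SE 0.24, adjusted p = 1.38e-05). Csrnp1, a nuclear protein with cysteine- and serine-rich stretches, had 47.4, 56.9 and 44.8 FPKM in APAP livers, against 2.81, 2.75 and 3.51 FPKM in vehicle livers (log2 difference 3.65, adjusted p = 6.54e-06). Zfand2a, a zinc finger protein that associates with the proteasome under proteotoxic stress, had 66.7, 82.5 and 91.9 FPKM in APAP livers, against 4.26, 5.22 and 5.85 FPKM in vehicle livers (log2 difference 3.73, adjusted p = 2.39e-06). The APAP values of these last genes were close to each other.

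Metabolic enzymes were among the steepest rises. Psat1, the aminotransferase of serine synthesis (chromosome 19, 15905124 to 15925059), was nearly absent from vehicle livers and read 19.3, 38.7 and 27.6 FPKM in APAP livers, against 0.105, 0.0695 and 0.148 FPKM in vehicle livers (log2 difference 4.68, SE 0.22, adjusted p = 4.83e-06). The ratio of its mean FPKM was 265. Chka, choline kinase alpha, the entry step of phosphatidylcholine synthesis from choline (chromosome 19, 3851774 to 3894369), had 147, 251 and 199.9 FPKM in APAP livers, against 6.07, 7.11 and 11.04 FPKM in vehicle livers (log2 difference 4.47, SE 0.23, adjusted p = 7.3e-06). The ratio of its mean FPKM was 24.7, with no overlap between groups. Hilpda, a lipid droplet protein that inhibits triglyceride breakdown, had 16.3, 105 and 48.1 FPKM in APAP livers, against 2.03, 3.03 and 2.62 FPKM in vehicle livers (log2 difference 3.66, adjusted p = 0.000622). APAP liver 2 was far above APAP liver 1 here, and the difference was 4.35 without APAP liver 1 and 3.04 without APAP liver 2.

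Promoter sequence is shown for Psat1 and Chka and, among the falls described below, for Usp2, to set a steep rise and a steep fall side by side. The RefSeq promoter table (build GRCm38.p6, the same assembly as mm10) held 20 of the 30 genes taken as the 15 rises and 15 falls. The 150 bases before the start are shown, 5′ to 3′ on the coding strand, and for these 3 genes that window holds no annotated exon. The windows of Tnfrsf12a, Rgs16 and Thrsp overlap exons and are not shown. Capitals mark CCAAT and GGGCGG on either strand (CCAAT reads ATTGG and GGGCGG reads CCGCCC on the other strand). Psat1 is at chr19:15925060-15925209 (minus strand), Chka at chr19:3851623-3851772 (plus strand) and Usp2 at chr9:44084770-44084919 (plus strand), where the RefSeq start lies inside the span of the deposited models.
Psat1: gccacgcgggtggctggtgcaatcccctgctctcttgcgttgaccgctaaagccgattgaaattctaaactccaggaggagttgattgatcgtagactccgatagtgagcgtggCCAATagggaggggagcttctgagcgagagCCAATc
Chka: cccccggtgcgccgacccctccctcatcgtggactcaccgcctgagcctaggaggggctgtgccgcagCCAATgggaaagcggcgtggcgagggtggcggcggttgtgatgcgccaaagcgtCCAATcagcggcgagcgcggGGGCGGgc
Usp2: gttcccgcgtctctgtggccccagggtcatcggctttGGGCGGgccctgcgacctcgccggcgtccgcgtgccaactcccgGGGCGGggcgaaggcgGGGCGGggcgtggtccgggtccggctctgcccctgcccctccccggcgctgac
CCAAT stands 36 and 6 bases before the start of Psat1 and 82 and 28 bases before that of Chka. GGGCGG stands 113, 69 and 53 bases before the start of Usp2, and 8 bases before that of Chka.

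Both motifs are common. Within 250 bases before the start, counting both strands, GGGCGG occurred in 58 percent of the 9268 tested genes with an entry, in 61.6 percent of the 861 that were higher by at least 2-fold and in 37 percent of the 270 that were lower by at least 2-fold. CCAAT occurred in 36.6, 34.4 and 43.7 percent of these sets in the same order. TATAAA occurred in 6.95 percent of all tested genes, 12.2 percent of the higher and 15.2 percent of the lower set. TGANTCA, the letters that AP-1 proteins bind, occurred in 4.66 percent of all, 8.36 percent of the higher and 4.07 percent of the lower set. TGACGTCA occurred in 2.83 percent of all, 3.6 percent of the higher and 0.741 percent of the lower set, and CACGTG in 8.56, 7.32 and 10 percent. The other motifs searched, in the same order of sets, were TGACNNNGC (12.2, 13.2 and 10.7 percent) and GAANNTTC (5.16, 4.88 and 7.04 percent). TGATGCAA (0.572, 0.929 and 1.11 percent) and CCWWWWWWGG, where W is A or T (1.12, 1.86 and 1.48 percent), were searched too. None of these differences was tested. The sets also differ in other ways, and a match shows letters, not binding.

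Akap12, a scaffold that anchors protein kinase A, had 4.71, 63.98 and 10.8 FPKM in APAP livers, against 0.504, 0.394 and 0.497 FPKM in vehicle livers (log2 difference 3.48, adjusted p = 0.0029). APAP liver 2 was far above the other APAP livers, and the difference was 4.24 without APAP liver 1 and 2.48 without APAP liver 2. Thbs1, the matrix protein thrombospondin 1, had 2.45, 26.6 and 14.6 FPKM in APAP livers, against 0.0672, 0.0893 and 0.0230 FPKM in vehicle livers (log2 difference 3.43, adjusted p = 0.00163), and its difference was 4.29 without APAP liver 1 and 2.79 without APAP liver 2. Efr3b, which tethers a phosphatidylinositol 4-kinase at the plasma membrane, had 9.11, 8.33 and 18.04 FPKM in APAP livers, against 0.0246, 0.0335 and 0.00830 FPKM in vehicle livers (log2 difference 3.57, adjusted p = 9.23e-05). Tmem151b, a membrane protein gene, was listed at 0 in 2 of the 3 vehicle livers and read 12.4, 7.12 and 9.32 FPKM in APAP livers, against 0.00831, 0 and 0 FPKM in vehicle livers. Hba-a1, an alpha globin gene that shares its locus with the near-identical Hba-a2, had 92.8, 172 and 72.3 FPKM in APAP livers, against 14.4, 7.40 and 7.28 FPKM in vehicle livers (log2 difference 3.37, adjusted p = 0.00168), and reads of these copies cannot be assigned with certainty. Beside it, the 5 red cell markers, which include both alpha globins, summed to 1980 to 6530 FPKM in APAP livers and 537 to 886 FPKM in vehicle livers. Of these 5, 3 were called higher and 0 lower, where 47.8% of all genes tested were called higher. Most of the sum was Hba-a2 and Hbb-bs. Alas2 overlapped between groups, at 85.6, 81.4 and 62.9 FPKM in APAP livers, against 69.7, 65.4 and 59.9 FPKM in vehicle livers. Hbb-bt was highest in vehicle liver 1, at 51 FPKM. The part of blood in the tissue was not tested.

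Lor codes for loricrin, a protein of the cornified envelope of skin, and had 14.2, 18.3 and 27.2 FPKM in APAP livers, against 0.262, 0.288 and 0.294 FPKM in vehicle livers (log2 difference 3.98, SE 0.23, adjusted p = 1.15e-05). Other genes of that envelope were then counted, a set chosen after values were seen. Of 47 listed, 27 were at 0 in all 6 livers and 11 had their lowest APAP liver above their highest vehicle liver. Among all genes tested, which reached the expression floor unlike most of these 47, 50.5% had all APAP livers higher and 47.8% were called higher. The 7 that reached the expression floor, Lor, Sprr1a, Sprr1b, Lce1d, Lce1e, Lce1f and Lce1g, were all called higher, although Sprr1b did not pass in every alternative. The floor is a mean over all livers of the series, and the vehicle values of these genes lay under it. These genes could pass it only through livers outside the vehicle group, which include the LRH1+APAP livers. This count therefore describes them without testing the set. Their family summed to 96.7 to 239 FPKM in APAP livers and 0.3 to 0.322 FPKM in vehicle livers, most of it Sprr1a. Lce1d, a late envelope protein gene, read 1.63, 2.02 and 3.03 FPKM in APAP livers, whereas each vehicle liver lists it at 0. Not all members appeared, with Ivl at 0, 2.6 and 0.728 FPKM in APAP livers and Sprr2a1 at 0 throughout.

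In all, 31 genes averaged at least 1 FPKM in APAP livers with every vehicle liver at 0, and 0 genes showed the reverse. Besides envelope genes they included, chosen after their values were seen, Tnfaip6, a secreted hyaluronan-binding protein, at 4.87, 8.26 and 11.1 FPKM in APAP livers. Areg, an epidermal growth factor receptor ligand, was at 1.9, 6.81 and 2.39 FPKM, and Fosl1, an AP-1 subunit, at 0.832, 17.1 and 5.1 FPKM in APAP livers. Il11, a cytokine of the interleukin 6 family, was at 0.593, 1.79 and 0.878 FPKM, and Sele, the endothelial adhesion molecule E-selectin, at 0.42, 2.21 and 0.712 FPKM. APAP liver 2 was the highest for Areg, Fosl1, Il11 and Sele, but not for Tnfaip6.

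These 15 falls were led by Rgs16, which shortens signalling by G protein-coupled receptors (chromosome 1, 153740354 to 153745468, mm10), at 7.99, 9.49 and 4.29 FPKM in APAP livers, against 117, 89.6 and 80.4 FPKM in vehicle livers (log2 difference -3.59, SE 0.34, adjusted p = 0.000106). Thrsp, the lipogenesis-associated protein Spot 14 (chromosome 7, 97412934 to 97417550), had 16.2, 9.95 and 14.5 FPKM in APAP livers, against 185, 119.9 and 161 FPKM in vehicle livers (log2 difference -3.43, SE 0.32, adjusted p = 0.000103). Usp2, a deubiquitinase whose liver expression is rhythmic and whose promoter is printed above (chromosome 9, 44067022 to 44095627), had 3.64, 0.986 and 1.20 FPKM in APAP livers, against 21.7, 21.9 and 24.7 FPKM in vehicle livers (log2 difference -3.12, SE 0.41, adjusted p = 0.000417). Every APAP liver lay far below every vehicle liver in these 3 genes. Inmt, an N-methyltransferase of indoles and other amines, had 70.3, 31.6 and 32.9 FPKM in APAP livers, against 409, 358 and 279 FPKM in vehicle livers (log2 difference -3.01, adjusted p = 0.000103). Ppp1r3b, the subunit that brings protein phosphatase 1 to glycogen, had 15.3, 8.18 and 7.66 FPKM in APAP livers, against 52.7, 49.96 and 50.5 FPKM in vehicle livers (log2 difference -2.26, adjusted p = 0.000115).

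Falls also touched growth factors and lipases. Fgf1, a fibroblast growth factor, had 19.1, 13.6 and 14.9 FPKM in APAP livers, against 68.8, 71.2 and 70.3 FPKM in vehicle livers (log2 difference -2.09, adjusted p = 8.65e-06), with little spread in either group. Lipg, endothelial lipase, had 1.85, 0.657 and 1.79 FPKM in APAP livers, against 6.97, 10.95 and 9.59 FPKM in vehicle livers (log2 difference -2.09, adjusted p = 0.000187). N4bp2l1, Tmem25 and Cpsf4l, whose roles are less well described, fell by 2.48, 2.09 and 1.98 on the log2 scale. All of these falls were larger after median-ratio scaling, at -2.39, -2.33, -2.77, -2.37 and -2.24. That scaling moved the median difference of all genes from 0.25 to 0.01, so larger falls and smaller rises follow from it. The rise of Tnfrsf12a, for example, went from 4.93 to 4.65.

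Tk1 and Afmid lie head to head on chromosome 11 and both were among the 15 falls taken for description. Tk1, the cytosolic thymidine kinase of dividing cells, spans 117815520 to 117826014 on the minus strand, and Afmid, the formamidase of tryptophan breakdown, spans 117825920 to 117839908 on the plus strand. Their models overlap by 95 bases. Tk1 had 7.35, 3.88 and 4.16 FPKM in APAP livers, against 48.9, 43.5 and 40.01 FPKM in vehicle livers (log2 difference -2.92, SE 0.21, adjusted p = 3.15e-05). Afmid had 27.8, 16.6 and 17.97 FPKM in APAP livers, against 86.7, 86.4 and 82.5 FPKM in vehicle livers (log2 difference -2.02, SE 0.16, adjusted p = 5.68e-05). The overlap is short beside both genes, but strand use in counting is not given in the sources used here.

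Tomm40l, a homologue of the mitochondrial import pore, had 62.8, 21.2 and 32.7 FPKM in APAP livers, against 162, 151 and 124 FPKM in vehicle livers (log2 difference -2.01, adjusted p = 0.000908). Its model overlaps Nr1i3, which codes for the nuclear receptor CAR, by 1042 bases and Apoa2 by 950 bases, both on the opposite strand, and these fell too, by 1.26 and 0.38 on the log2 scale. Without known strand use, reads in the shared bases cannot be told apart. The fall of Apoa2 did not pass under every alternative.

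**Figure D3:**
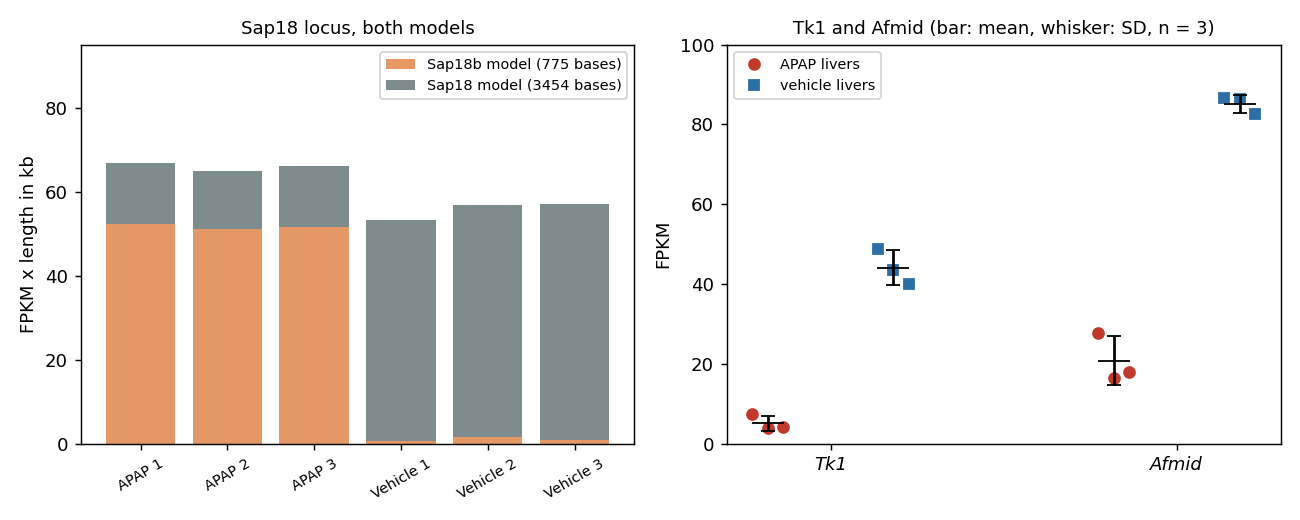
Left, FPKM multiplied by transcript length in kb for the Sap18b and Sap18 models, stacked for each liver, with APAP livers left of vehicle livers; the total is 64.9 to 66.7 in APAP livers and 53.2 to 57 in vehicle livers while the leading model differs. Right, FPKM of the neighbours Tk1 and Afmid by liver with mean and SD (n = 3), APAP left of vehicle; both are lower in all APAP livers.

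One of the largest rises was matched by a fall at the same place. Sap18b was listed inside Sap18 on chromosome 14, on the same strand, at 57798219 to 57802330 within 57798190 to 57804980. Sap18 codes for a subunit of Sin3 deacetylase and splicing complexes, and the RefSeq gene table puts the Sap18b gene on chromosome 8 instead. The Sap18b model of 775 bases read 67.3, 66.1 and 66.7 FPKM in APAP livers, against 0.841, 2.07 and 1.20 FPKM in vehicle livers (log2 difference 4.87, SE 0.16, adjusted p = 7.36e-07). The Sap18 model of 3454 bases read 4.22, 3.95 and 4.15 FPKM in APAP livers, against 15.2, 15.99 and 16.2 FPKM in vehicle livers (log2 difference -1.72, SE 0.07, adjusted p = 2.23e-06). Multiplied by length in kb, the 2 models together gave 66.7, 64.9 and 66 in APAP livers, against 53.2, 56.8 and 57 in vehicle livers. The locus as a whole therefore differed far less than either model. No other overlapping pair of genes was called at least 2-fold in opposite directions.

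Snord52, a box C/D small nucleolar RNA that guides ribose methylation of ribosomal RNA, had 167, 57.2 and 99.9 FPKM in APAP livers, against 1.60, 1.53 and 1.45 FPKM in vehicle livers (log2 difference 5.30, adjusted p = 0.000141). Its 58 bases lie inside 1110038B12Rik on the same strand of chromosome 17 (34950951 to 34951008). That host gene had 340.5, 129.7 and 203 FPKM in APAP livers, against 16.3, 17.5 and 15.4 FPKM in vehicle livers (log2 difference 3.59, adjusted p = 0.000108). A model this short is below the usual fragment length of such libraries, and the symbol drops out when models under 200 bases are left out, while the host gene remains. The APAP livers kept the same order in both, with liver 1 highest and liver 2 lowest.

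Among symbols without a descriptive name, Gm3776 had 64.7, 206 and 152 FPKM in APAP livers, against 1.28, 0.983 and 0.455 FPKM in vehicle livers (log2 difference 6.09, adjusted p = 1.39e-05). Gm10639 had 12.4, 22.4 and 21.9 FPKM in APAP livers, against 2.21, 0 and 0 FPKM in vehicle livers (log2 difference 3.71, adjusted p = 0.000231). Both lie on chromosome 9 between the glutathione transferase genes Gsta1 and Gsta2 and belong to that family of near-copies, so the split of reads among them is uncertain. C730036E19Rik, a long noncoding RNA listed in RefSeq under the synonym lncLSTR, had 9.84, 4.24 and 3.24 FPKM in APAP livers, against 54.5, 53.5 and 60.5 FPKM in vehicle livers (log2 difference -3.20, adjusted p = 0.00012). BC024386 had 101, 40.8 and 47.5 FPKM in APAP livers, against 319, 309 and 296 FPKM in vehicle livers (log2 difference -2.38, adjusted p = 0.000273). A930033H14Rik fell by 1.85 on the log2 scale, but it lies on the opposite strand within Rhobtb1, which fell by 1.19.

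For a wider view, 60 lists of genes sharing a function, none of them a familiar APAP list, were counted. They hold 3028 of the tested genes. Each count below can be read against the shares of all genes, 47.8% higher and 15.1% lower, or 28.9% and 28.7% after median-ratio scaling. The lists were written from general knowledge, and no list was tested as a set. In each, named genes are the rises and falls of smallest adjusted p, and members named beside these were chosen after their values were seen. In every gene named from the lists except Meg3, Smad9, Inhbc, Lcn2 and Nrg4, the 3 APAP livers all lay above or all lay below the 3 vehicle livers. Among all genes tested, 50.5% had all APAP livers higher and 16.5% had all APAP livers lower. The named genes were picked by small adjusted p or after their values were seen, which favours such separation. Their separation is therefore no test.

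**Figure D4:**
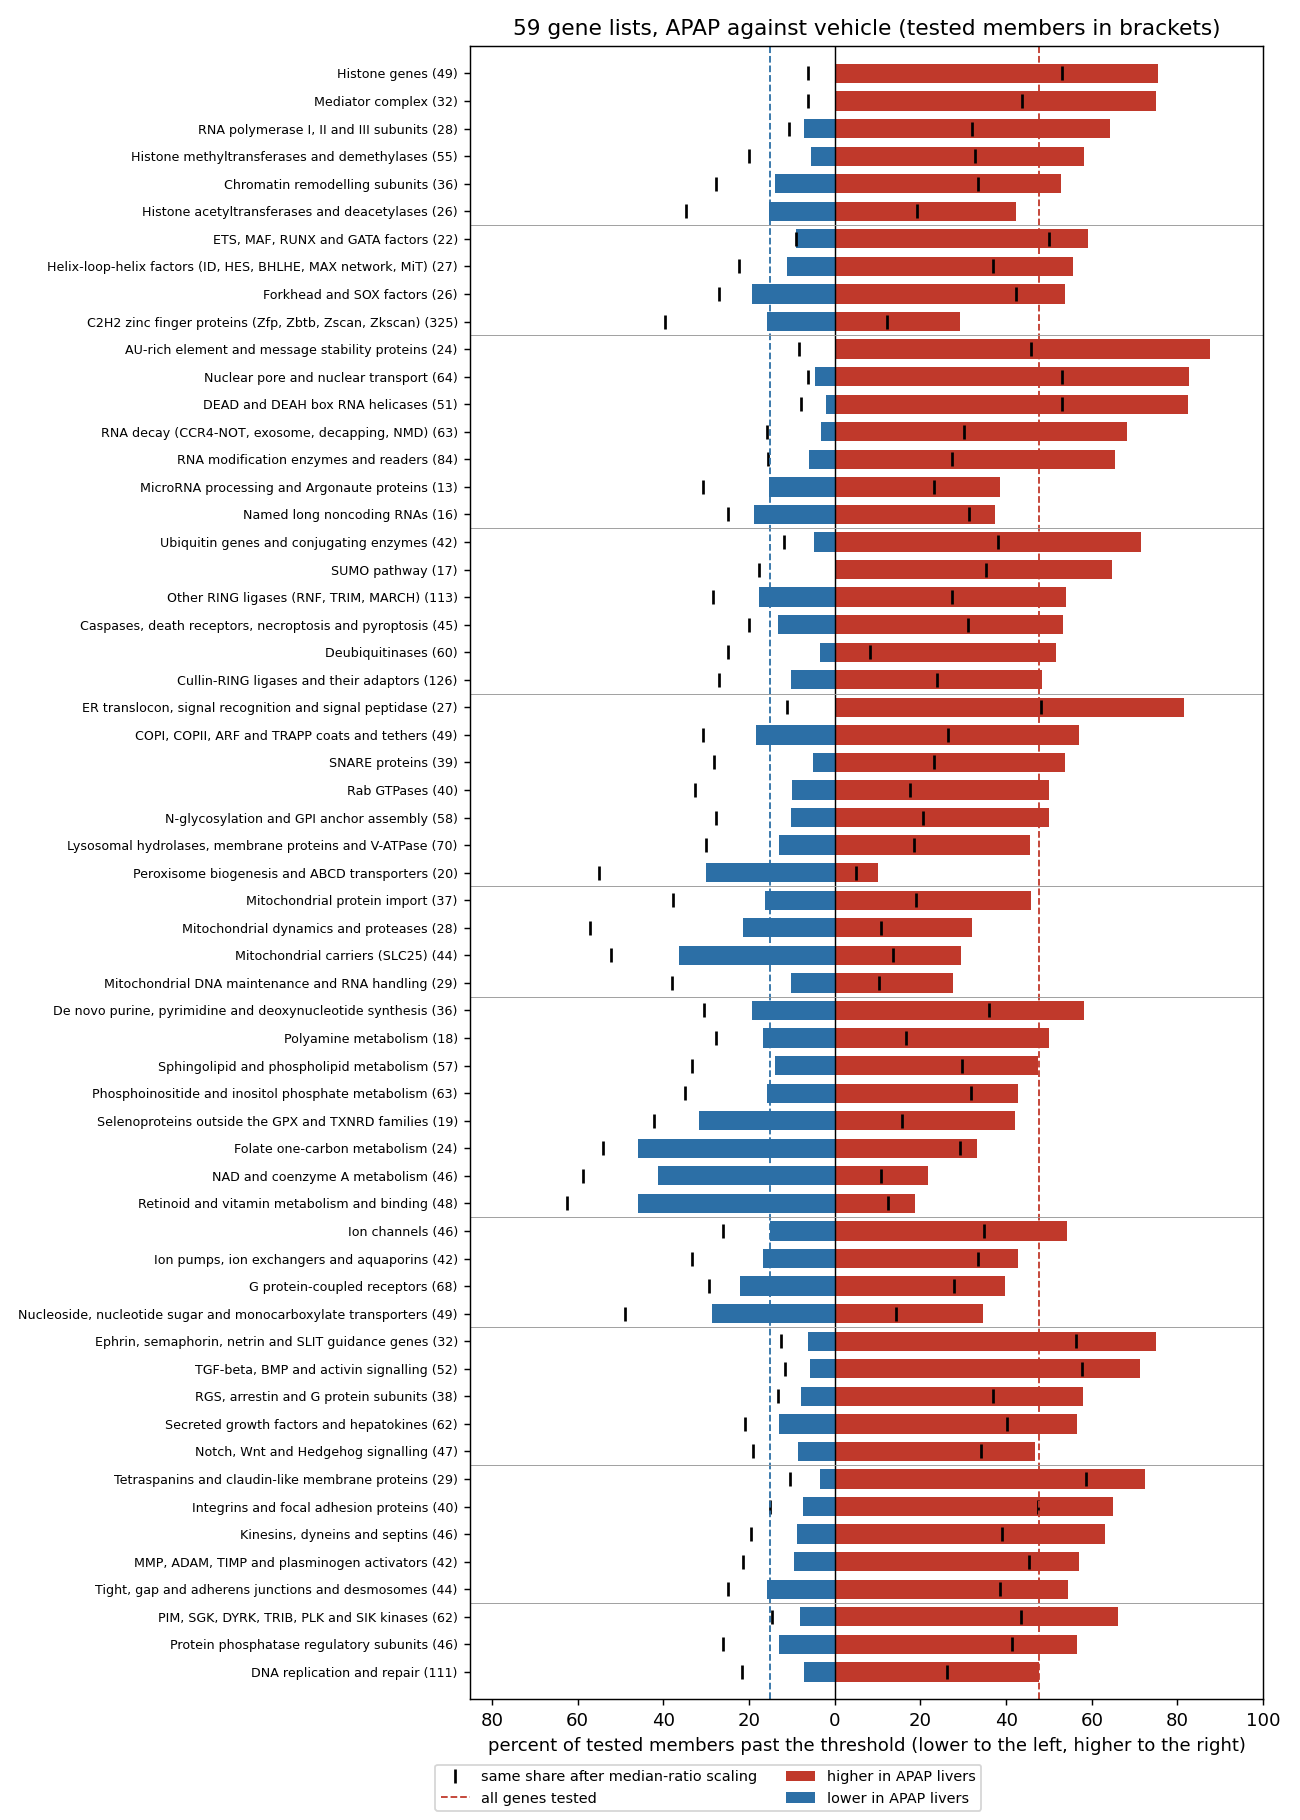
Percent of tested members called higher (red, to the right) and lower (blue, to the left) in APAP livers for 59 of the 60 lists, grouped by role, with the number of tested members in brackets. Dashed lines give the shares of all genes tested, 47.8% and 15.1%, and black ticks the shares after median-ratio scaling. Message stability, nuclear pore and RNA helicase lists reach furthest right, and retinoid, folate and NAD lists furthest left.

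As deposited, several lists of genes that handle RNA held some of the highest shares of rises. Of the 64 tested genes for the nuclear pore and nuclear transport, 53 were higher and 3 lower in APAP livers, with a median log2 difference of 0.56. After median-ratio scaling 34 were higher and 4 lower (0.32). Rcc1, which charges the transport GTPase Ran, had 8.69, 11.97 and 11.2 FPKM in APAP livers, against 4.34, 4.32 and 4.78 FPKM in vehicle livers (log2 difference 1.07, adjusted p = 0.000147). Its relative Rcc2 had 14.3, 14.9 and 13.9 FPKM in APAP livers, against 6.42, 6.44 and 6.34 FPKM in vehicle livers (log2 difference 1.05, adjusted p = 1.94e-05). Ran itself and the import receptor Kpnb1 were higher by 1.07 and 1.03. Nxt2, a cofactor of messenger RNA export, fell by 0.63, and Ranbp6, an importin, by 0.36. Of 51 DEAD and DEAH box RNA helicases, 42 were higher and 1 lower in APAP livers, with a median log2 difference of 0.50, and after scaling 27 were higher and 4 lower. Ddx54 and Ddx49, nucleolar helicases, were higher by 0.80 and 0.85 (adjusted p = 0.000106 and 0.000128), and Ddx21, another nucleolar helicase, by 1.57. The lower member was Ddx58, the viral RNA sensor RIG-I, with 4.03, 3.86 and 4.10 FPKM in APAP livers, against 5.32, 5.01 and 5.06 FPKM in vehicle livers (log2 difference -0.29, adjusted p = 0.0101).

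As deposited, genes that set message lifetime leaned the same way. Of 24 proteins that bind AU-rich elements or otherwise affect message stability in either direction, 21 were higher and 0 lower in APAP livers. Their median log2 difference was 0.46, and after scaling 11 were higher and 2 lower. Khsrp, a decay-promoting binder, had 11.3, 12.5 and 12.5 FPKM in APAP livers, against 7.61, 7.57 and 7.93 FPKM in vehicle livers (log2 difference 0.59, adjusted p = 0.000261), and Cpeb4, a regulator of cytoplasmic polyadenylation, was higher by 0.78. Zfp36, tristetraprolin, which destabilises cytokine messages, had 67.6, 156 and 101 FPKM in APAP livers, against 39.6, 45.4 and 42.3 FPKM in vehicle livers (log2 difference 1.25, adjusted p = 0.00232). Of 63 genes for RNA decay, 43 were higher and 2 lower in APAP livers, with a median log2 difference of 0.34. After scaling 19 were higher and 10 lower, a share of rises near the 28.9% of all genes. Btg1 and Pnrc1, which couple to deadenylation and decapping, were higher by 1.83 and 1.48 (adjusted p = 9.11e-05 and 0.0001). Btg2, an antiproliferative partner of the CCR4-NOT deadenylase, had 10.9, 172 and 41.4 FPKM in APAP livers, against 1.75, 1.53 and 2.21 FPKM in vehicle livers (log2 difference 3.98, adjusted p = 0.00218), and its difference was 4.93 without APAP liver 1 and 2.99 without APAP liver 2. Cnot8, a deadenylase, fell by 0.53. In the decay list the count of lower members was 1 without vehicle liver 1 or vehicle liver 2 and 5 without APAP liver 1.

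RNA modification enzymes counted 55 higher and 5 lower of 84, and 23 and 13 after scaling. Their share of rises after scaling was also near the 28.9% of all genes. Pus1, a pseudouridine synthase, had 14.3, 15.9 and 16.7 FPKM in APAP livers, against 7.55, 6.96 and 7.71 FPKM in vehicle livers (log2 difference 0.98, adjusted p = 4.59e-05). Ctu2, which helps add sulfur to transfer RNA, had 6.54, 8.24 and 6.98 FPKM in APAP livers, against 2.86, 2.92 and 2.75 FPKM in vehicle livers (log2 difference 1.10, adjusted p = 6.73e-05). Mettl20, now known as a protein methyltransferase of electron transfer flavoprotein, fell by 0.69. In this list the count of lower members was 2 without vehicle liver 3 and 3 without vehicle liver 1 or APAP liver 2. MicroRNA processing genes counted 5 higher and 2 lower of 13 (3 and 4 after scaling), among them Xpo5, the exporter of precursor microRNAs, higher by 0.80. Here the count of lower members was 1 without vehicle liver 1 or vehicle liver 2 or APAP liver 3.

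Of 16 named long noncoding RNAs, 6 were higher and 3 lower (5 and 4 after scaling). Mir17hg, host of the miR-17 cluster, had 5.06, 11.01 and 6.26 FPKM in APAP livers, against 1.23, 1.17 and 1.49 FPKM in vehicle livers (log2 difference 1.82, adjusted p = 0.000326). Neat1, the RNA scaffold of paraspeckles, was higher by 2.01 (adjusted p = 0.00455) and by 1.42 without vehicle liver 1. Rmrp, a short RNA of an endoribonuclease, had 57.1, 13.3 and 22.9 FPKM in APAP livers, against 3.51, 0.719 and 1.86 FPKM in vehicle livers (log2 difference 3.27, adjusted p = 0.0018). RNA polymerase III makes Rmrp, and such RNAs lack the poly(A) tail that messenger RNA kits select. Meg3 had 1.89, 0.420 and 1.09 FPKM in APAP livers, against 3.47, 2.87 and 1.54 FPKM in vehicle livers and passed as lower (adjusted p = 0.0375) but not in every alternative.

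Among transcription and chromatin genes, the Mediator, RNA polymerase and histone lists held more rises than the background as deposited. The chromatin enzyme and remodelling lists lay closer to it. After median-ratio scaling the share of rises in the RNA polymerase list was also close to the background. Of 32 Mediator subunits, 24 were higher and 0 lower in APAP livers, with a median log2 difference of 0.49, and after scaling 14 were higher and 2 lower. Med13, of the kinase module, had 12.6, 19.9 and 15.9 FPKM in APAP livers, against 4.26, 4.14 and 4.75 FPKM in vehicle livers (log2 difference 1.65, adjusted p = 0.000122). RNA polymerase subunits counted 18 higher and 2 lower of 28 (9 and 3 after scaling). The largest subunits of polymerase II went apart. Polr2a had 15.7, 16.8 and 17.03 FPKM in APAP livers, against 9.42, 8.19 and 7.60 FPKM in vehicle livers (log2 difference 0.90, adjusted p = 0.000149). Polr2b had 11.1, 9.97 and 11.5 FPKM in APAP livers, against 15.7, 15.7 and 12.9 FPKM in vehicle livers (log2 difference -0.41, adjusted p = 0.00438). Histone methyltransferases and demethylases counted 32 higher and 3 lower of 55, with Dot1l, the H3 lysine 79 methyltransferase, higher by 1.32. After median-ratio scaling the split of this list was 18 higher and 11 lower.

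Histone acetyltransferases and deacetylases counted 11 higher and 4 lower of 26, which scaling turned to 5 and 9. Sirt1, a NAD-dependent deacetylase, had 9.21, 9.98 and 9.31 FPKM in APAP livers, against 3.79, 3.27 and 3.71 FPKM in vehicle livers (log2 difference 1.19, adjusted p = 0.000131). Hdac11, another deacetylase, fell by 1.01, and the acetyltransferase Kat2b by 0.54. Chromatin remodelling subunits counted 19 higher and 5 lower of 36 (12 and 10 after scaling). Smarca2, the BRM ATPase of the SWI/SNF complex, had 16.5, 10.2 and 11.8 FPKM in APAP livers, against 33.9, 31.4 and 24.2 FPKM in vehicle livers (log2 difference -1.17, adjusted p = 0.000659), and Smarcd2, another subunit, fell by 0.89.

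Histone genes themselves counted 37 higher and 0 lower of 49 tested and 84 listed, with 12 higher by at least 2-fold. After scaling 26 were higher and 3 lower. H3f3b, a replacement histone H3.3 gene that is made outside S phase, had 166, 294 and 237 FPKM in APAP livers, against 47.98, 54.01 and 48.1 FPKM in vehicle livers (log2 difference 2.16, adjusted p = 8.16e-05). Hist1h3g had 6.52, 4.57 and 6.51 FPKM in APAP livers, against 0.0137, 0 and 0.00920 FPKM in vehicle livers (log2 difference 2.75, adjusted p = 7.26e-06). Most replication-dependent histone messages lack a poly(A) tail and their genes are near-copies, so single values are uncertain. In this list the count of lower members was 1 without vehicle liver 1 or vehicle liver 3 and 2 without APAP liver 1.

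Transcription factor families outside the immediate early genes were mixed. C2H2 zinc finger proteins, the largest family, counted 95 higher (29.2%) and 51 lower (15.7%) of 325, with a median of 0.04, and scaling gave 40 higher and 129 lower at a median of -0.16. Their share of rises was below that of all genes on both scales. Zbtb21 had 6.06, 8.43 and 7.05 FPKM in APAP livers, against 1.75, 1.71 and 1.83 FPKM in vehicle livers (log2 difference 1.56, adjusted p = 2.26e-05), while Zfp385b fell by 1.44. Helix-loop-helix factors counted 15 higher and 3 lower of 27 (10 and 6 after scaling). The ID proteins, which block such factors from binding DNA, were all higher in APAP livers. Id3 had 58.4, 115 and 60.6 FPKM in APAP livers, against 9.81, 10.6 and 12.2 FPKM in vehicle livers (log2 difference 2.67, adjusted p = 0.000277). Id1 was higher by 2.58, Id2 by 1.73 and Id4 by 1.09 (adjusted p = 0.00158, 0.00125 and 0.00042). Hes1, a Notch target repressor, had 21.1, 17.6 and 13.6 FPKM in APAP livers, against 3.71, 3.57 and 4.48 FPKM in vehicle livers (log2 difference 1.89, adjusted p = 0.000256). Mlxipl, the glucose-responsive factor ChREBP, fell by 1.06 and Hes6 by 1.03. For this family the count of lower members was 5 without APAP liver 1.

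Of 26 forkhead and SOX factors, 14 were higher and 5 lower (11 and 7 after scaling). Foxq1 had 11.1, 17.4 and 12.6 FPKM in APAP livers, against 2.01, 1.20 and 2.11 FPKM in vehicle livers (log2 difference 2.40, adjusted p = 7.84e-05). The insulin-regulated factors Foxo3 and Foxo1 went apart, with Foxo3 higher by 1.22 and Foxo1 lower at -0.62 (adjusted p = 0.000242 and 0.00097). ETS, MAF, RUNX and GATA factors counted 13 higher and 2 lower of 22 (11 and 2 after scaling). The small MAF proteins, which pair with other leucine zipper factors, went in different directions. Maff had 78.2, 118 and 102 FPKM in APAP livers, against 8.71, 9.38 and 9.11 FPKM in vehicle livers (log2 difference 3.30, SE 0.14, adjusted p = 3.44e-06), and Mafk was higher by 2.24. Mafg had 22.7, 21.8 and 22.001 FPKM in APAP livers, against 31.6, 30.7 and 27.96 FPKM in vehicle livers (log2 difference -0.42, adjusted p = 0.00153). Ets2, a growth-responsive factor, had 22.3, 37.99 and 33.3 FPKM in APAP livers, against 5.08, 5.84 and 5.51 FPKM in vehicle livers (log2 difference 2.28, adjusted p = 6.24e-05).

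Ubiquitin genes and conjugating enzymes counted 30 higher and 2 lower of 42, and 16 and 5 after scaling. Cdc34, a conjugating enzyme, had 77.6, 69.99 and 76.8 FPKM in APAP livers, against 40.2, 41.7 and 40.5 FPKM in vehicle livers (log2 difference 0.86, adjusted p = 3.87e-05). Deubiquitinases counted 31 higher and 2 lower of 60, but scaling turned this to 5 and 15, so its direction depended on scale. Usp2, described above, was by far the largest change, and Otud1 was higher by 1.58. SUMO pathway genes counted 11 higher and 0 lower of 17 (6 and 3 after scaling), all under 2-fold. Among the SUMO genes the count of lower members was 1 without APAP liver 1.

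Ubiquitin ligases of both kinds counted near the background. Cullin-RING ligases and adaptors had 61 higher and 13 lower of 126 (30 and 34 after scaling), and the count of lower members was 20 without APAP liver 1. Fbxo31, an F-box protein, fell by 1.26, and Kctd3 was higher by 1.97. Other RING ligases had 61 higher and 20 lower of 113, and 31 and 32 after scaling. Mdm2, the ligase of p53, had 30.3, 43.9 and 35.4 FPKM in APAP livers, against 10.6, 10.2 and 10.8 FPKM in vehicle livers (log2 difference 1.69, adjusted p = 3.83e-05), and Rnf169, a DNA damage ligase, fell by 1.08. Caspases, death receptors and pyroptosis genes counted 24 higher and 6 lower of 45 (14 and 9 after scaling). Tnfrsf1a, the main tumour necrosis factor receptor, had 45.3, 68.2 and 67.9 FPKM in APAP livers, against 23.2, 23.7 and 23.9 FPKM in vehicle livers (log2 difference 1.297, adjusted p = 0.000186), and Mlkl, the effector of necroptosis, was higher by 1.36. Nlrp6, an inflammasome sensor, had 29.9, 19.3 and 23.05 FPKM in APAP livers, against 60.2, 61.5 and 61.3 FPKM in vehicle livers (log2 difference -1.33, adjusted p = 0.000129).

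Along the secretory route, the entry gate into the endoplasmic reticulum showed the steepest lean. Of 27 genes for the translocon, signal recognition particle and signal peptidase, 22 were higher and 0 lower in APAP livers, with a median log2 difference of 0.59, and after scaling 13 were higher and 3 lower. Sec61a1, the channel, had 52.04, 66.1 and 77.1 FPKM in APAP livers, against 30.6, 30.5 and 32.1 FPKM in vehicle livers (log2 difference 1.03, adjusted p = 0.000313). Srprb, of the signal recognition particle receptor, had 9.91, 15.8 and 15.9 FPKM in APAP livers, against 5.06, 5.04 and 5.36 FPKM in vehicle livers (log2 difference 1.24, adjusted p = 0.000317). Coat and tether genes counted 28 higher and 9 lower of 49, and 13 and 15 after scaling. Sec23b, of the COPII coat, was higher by 1.36 (adjusted p = 0.000704), and Mia3, which loads bulky cargo such as collagen, fell by 0.90. SNARE proteins counted 21 and 2 of 39, and Rab GTPases 20 and 4 of 40. Both lists turned to more lower than higher members after scaling, at 9 and 11 for SNARE proteins and 7 and 13 for Rab GTPases. For SNARE proteins the count of lower members was 1 without vehicle liver 2. For Rab GTPases the count of lower members was 2 without vehicle liver 1 or vehicle liver 2 or vehicle liver 3 or APAP liver 2 or APAP liver 3 and 7 without APAP liver 1. Rab30, a Golgi GTPase, had 25.4, 61.2 and 36.8 FPKM in APAP livers, against 9.35, 11.8 and 11.5 FPKM in vehicle livers (log2 difference 1.75, adjusted p = 0.00127).

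N-glycosylation and GPI anchor genes counted 29 higher and 6 lower of 58, with Mgat4b, an antennary branching enzyme, higher by 0.90 and Alg6, a glucosyltransferase of the lipid-linked precursor, lower by 0.55 on the log2 scale. Scaling turned their split to 12 and 16. Lysosomal genes counted 32 higher and 9 lower of 70, and 13 and 21 after scaling. Within them the proteases Ctsl and Lgmn rose. Ctsl, cathepsin L, had 359.5, 393 and 385 FPKM in APAP livers, against 156, 156 and 152 FPKM in vehicle livers (log2 difference 1.29, SE 0.07, adjusted p = 8.71e-06). Lgmn, legumain, had 39.9, 88.7 and 71.1 FPKM in APAP livers, against 16.8, 19.002 and 18.2 FPKM in vehicle livers (log2 difference 1.76, adjusted p = 0.000486). Lamp2, a membrane glycoprotein of lysosomes, had 196, 169 and 166 FPKM in APAP livers, against 266, 286 and 278 FPKM in vehicle livers (log2 difference -0.64, adjusted p = 0.000283).

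Peroxisome genes were different. Of 20 tested, 2 were higher (10%) and 6 lower (30%), with a median of -0.13, and after scaling 1 was higher and 11 lower. Pex2, a membrane ring protein, had 18.1, 15.9 and 19.4 FPKM in APAP livers, against 5.96, 6.32 and 5.99 FPKM in vehicle livers (log2 difference 1.40, adjusted p = 0.00303). Pex7, the receptor for one class of import signal, had 22.96, 17.2 and 18.1 FPKM in APAP livers, against 36.8, 36.3 and 34.5 FPKM in vehicle livers (log2 difference -0.86, adjusted p = 0.000246). Pex19 passed as higher (log2 difference 0.39, adjusted p = 0.00445) but not after median-ratio scaling (adjusted p = 0.407).

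As deposited, the mitochondrial import list lay near the background, and the other mitochondrial lists lay below it in rises. The SLC25 carriers counted 13 higher (29.5%) and 16 lower (36.4%) of 44, with a median of -0.13, and after scaling 6 were higher and 23 lower. Slc25a13, the aspartate-glutamate carrier citrin, had 63.9, 46.7 and 54.9 FPKM in APAP livers, against 106, 114 and 105 FPKM in vehicle livers (log2 difference -0.97, adjusted p = 0.00023), and Slc25a32, a folate and flavin carrier, fell by 0.50. Slc25a23, a calcium-regulated adenine nucleotide carrier, fell by 1.31. Slc25a4, the heart-type adenine nucleotide translocator, had 7.77, 9.77 and 11.2 FPKM in APAP livers, against 3.59, 3.82 and 2.96 FPKM in vehicle livers (log2 difference 1.24, adjusted p = 0.000159), and Ucp2, an uncoupling protein, was higher by 1.32. Slc25a30 was the steepest riser of the family at 17.8, 191 and 89.5 FPKM in APAP livers, against 11.1, 10.5 and 10.1 FPKM in vehicle livers (log2 difference 2.58, adjusted p = 0.0104), and its difference was 3.51 without APAP liver 1 and 1.84 without APAP liver 2.

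Mitochondrial dynamics genes and proteases counted 9 higher and 6 lower of 28, and 3 and 16 after scaling. Mtfr2, a fission regulator of dividing cells, had 3.10, 2.91 and 2.90 FPKM in APAP livers, against 0.115, 0.263 and 0.341 FPKM in vehicle livers (log2 difference 1.68, adjusted p = 2.02e-05). Import genes counted 17 higher (45.9%) and 6 lower (16.2%) of 37, and 7 and 14 after scaling. Tomm40, the import pore, was higher by 0.75 (adjusted p = 0.000339), opposite to its homologue Tomm40l. Genes for mitochondrial DNA and RNA counted 8 higher (27.6%) and 3 lower (10.3%) of 29, and 3 and 11 after scaling. Here the count of lower members was 0 without vehicle liver 1 or vehicle liver 2 and 1 without vehicle liver 3 or APAP liver 2.

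Small-molecule metabolism held the lists with the largest share of falls. Of 48 retinoid and vitamin genes, 9 were higher (18.8%) and 22 lower (45.8%), with a median of -0.15, and after scaling 6 were higher and 30 lower. Rdh16, a retinol dehydrogenase, had 22.5, 17.5 and 18.7 FPKM in APAP livers, against 47.99, 51.6 and 47.7 FPKM in vehicle livers (log2 difference -1.29, adjusted p = 0.0001). Its relative Rdh9 had 13.3, 14.8 and 18.4 FPKM in APAP livers, against 39.3, 37.2 and 39.6 FPKM in vehicle livers (log2 difference -1.28, adjusted p = 8.14e-05). Ttpa, the vitamin E transfer protein, had 91.9, 63.9 and 63.7 FPKM in APAP livers, against 178, 174 and 189 FPKM in vehicle livers (log2 difference -1.31, adjusted p = 0.000143). Gulo, which completes vitamin C synthesis in mice, had 103, 79.97 and 91.4 FPKM in APAP livers, against 197, 185 and 176 FPKM in vehicle livers (log2 difference -1.02, adjusted p = 0.000109). Pdxk, pyridoxal kinase, fell by 1.28. Against this trend Bco1, which splits beta-carotene into retinal, had 8.72, 29.97 and 22.4 FPKM in APAP livers, against 2.97, 3.42 and 3.03 FPKM in vehicle livers (log2 difference 2.21, adjusted p = 0.00092). Stra6l, a receptor for retinol-binding protein, had 36.8, 50.1 and 46.5 FPKM in APAP livers, against 14.7, 11.8 and 13.04 FPKM in vehicle livers (log2 difference 1.68, adjusted p = 4.54e-05). All APAP livers lay above all vehicle livers in both.

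NAD and coenzyme A genes counted 10 higher (21.7%) and 19 lower (41.3%) of 46, with 7 lower and 0 higher by at least 2-fold. After scaling 5 were higher and 27 lower. The kynurenine route from tryptophan was touched at several steps. Ido2, a tryptophan dioxygenase, had 9.88, 8.34 and 7.98 FPKM in APAP livers, against 43.6, 42.6 and 48.8 FPKM in vehicle livers (log2 difference -2.24, SE 0.11, adjusted p = 6.54e-06), and Afmid, described above, fell by 2.02. Acmsd, which diverts the route away from NAD, had 1.81, 1.27 and 1.26 FPKM in APAP livers, against 4.98, 3.44 and 3.69 FPKM in vehicle livers (log2 difference -1.04, adjusted p = 0.000901). Salvage genes fell as well. Nampt, the rate-limiting enzyme of nicotinamide salvage, had 24.2, 11.6 and 13.8 FPKM in APAP livers, against 40.7, 38.2 and 32.8 FPKM in vehicle livers (log2 difference -1.19, adjusted p = 0.00194). Nmrk1, nicotinamide riboside kinase, had 8.45, 4.68 and 10.1 FPKM in APAP livers, against 21.3, 20.7 and 15.8 FPKM in vehicle livers (log2 difference -1.26, adjusted p = 0.00182). Nadk2, the mitochondrial NAD kinase, fell by 1.01. In coenzyme A synthesis Pank1, pantothenate kinase, had 29.5, 10.3 and 17.6 FPKM in APAP livers, against 47.4, 50.9 and 45.4 FPKM in vehicle livers (log2 difference -1.39, adjusted p = 0.00546), and Vnn3, of the pantetheinase family, fell by 1.18.

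Folate one-carbon genes went both ways. Of 24 tested, 8 were higher (33.3%) and 11 lower (45.8%), and 7 and 13 after scaling. In serine synthesis, Phgdh had 2.41, 1.66 and 1.22 FPKM in APAP livers, against 0.0722, 0 and 0 FPKM in vehicle livers (log2 difference 1.41, adjusted p = 0.000229) beside Psat1. Mthfd2, a mitochondrial folate enzyme, had 8.08, 10.3 and 6.55 FPKM in APAP livers, against 0.510, 0.571 and 0.652 FPKM in vehicle livers (log2 difference 2.54, SE 0.15, adjusted p = 1.25e-05) and Mthfd1l was higher by 1.31 (adjusted p = 0.000139). Shmt1, the cytosolic serine hydroxymethyltransferase, had 53.6, 17.1 and 29.8 FPKM in APAP livers, against 91.3, 73.2 and 82.6 FPKM in vehicle livers (log2 difference -1.41, adjusted p = 0.00502). Mthfd1 had 30.1, 12.9 and 18.05 FPKM in APAP livers, against 48.8, 45.2 and 45.2 FPKM in vehicle livers (log2 difference -1.23, adjusted p = 0.00228), and Aldh1l1, which oxidises formyl folate, fell by 0.91. Amt, of the mitochondrial glycine cleavage system, fell by 0.60 (adjusted p = 0.00137). In each of these 7 genes the groups did not overlap.

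Nucleotide synthesis counted 21 higher and 7 lower of 36, and 13 and 11 after scaling. Ctps, CTP synthase, had 5.63, 14.2 and 11.04 FPKM in APAP livers, against 1.21, 1.84 and 1.20 FPKM in vehicle livers (log2 difference 2.15, adjusted p = 0.000343). Cad, the start of pyrimidine synthesis, was higher by 1.11, and Impdh1, of guanine nucleotide synthesis, by 1.28. The mitochondrial adenylate kinases Ak3 and Ak4 fell by 1.06 and 1.25. Polyamine genes counted 9 higher and 3 lower of 18 (3 and 5 after scaling). Smox, spermine oxidase, had 2.71, 24.6 and 12.98 FPKM in APAP livers, against 0.714, 1.21 and 0.827 FPKM in vehicle livers (log2 difference 2.53, adjusted p = 0.00465), and its difference was 3.31 without APAP liver 1 and 1.92 without APAP liver 2. Srm, spermidine synthase, had 21.7, 34.6 and 36.6 FPKM in APAP livers, against 14.3, 14.3 and 14.8 FPKM in vehicle livers (log2 difference 1.01, adjusted p = 0.00113), and Paox, an acetylpolyamine oxidase, fell by 0.73.

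Sphingolipid and phospholipid genes counted 27 higher and 8 lower of 57 (17 and 19 after scaling), near the background, and the count of lower members was 14 without APAP liver 1. Steps of sphingolipid synthesis were among the rises, with Sptlc2, of the committed step, at 5.15, 11.8 and 9.50 FPKM in APAP livers, against 2.45, 2.24 and 2.41 FPKM in vehicle livers (log2 difference 1.48, adjusted p = 0.00092). Ugcg, glucosylceramide synthase, was higher by 1.46, and Sgms1, sphingomyelin synthase, by 1.17. Choline and ethanolamine kinases went apart, since Chka rose and Etnk2 had 67.2, 61.7 and 75.1 FPKM in APAP livers, against 143, 169 and 156 FPKM in vehicle livers (log2 difference -1.19, adjusted p = 0.000156). Phosphoinositide genes counted 27 higher and 10 lower of 63 (20 and 22 after scaling), and the count of lower members was 5 without vehicle liver 1 or APAP liver 2 and 6 without vehicle liver 3 or APAP liver 3. Selenoprotein genes counted 8 higher and 6 lower of 19 (3 and 8 after scaling). Sephs2, which supplies selenophosphate, had 216, 106 and 143 FPKM in APAP livers, against 402, 384 and 363 FPKM in vehicle livers (log2 difference -1.36, adjusted p = 0.000834). Sepsecs, of selenocysteine synthesis, fell by 0.63. Dio1, the thyroid hormone deiodinase, had 1.58, 1.23 and 1.504 FPKM in APAP livers, against 2.84, 4.18 and 9.79 FPKM in vehicle livers (log2 difference -1.300, adjusted p = 0.00668).

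Transporters of small molecules were mixed. Nucleoside, nucleotide sugar and monocarboxylate transporters counted 17 higher (34.7%) and 14 lower (28.6%) of 49, with 8 lower and 4 higher by at least 2-fold. After scaling 7 were higher and 24 lower, and as deposited the count of higher members was 11 without vehicle liver 2 or vehicle liver 3. Slc29a1, an equilibrative nucleoside transporter, had 67.8, 55.99 and 54.7 FPKM in APAP livers, against 141, 120.3 and 134 FPKM in vehicle livers (log2 difference -1.14, adjusted p = 8.16e-05). Slc37a4, the glucose 6-phosphate transporter, had 41.1, 20.4 and 37.3 FPKM in APAP livers, against 95.4, 81.1 and 86.5 FPKM in vehicle livers (log2 difference -1.44, adjusted p = 0.000815). Slc17a2 had 39.7, 17.4 and 19.7 FPKM in APAP livers, against 82.1, 87.6 and 74.2 FPKM in vehicle livers (log2 difference -1.72, adjusted p = 0.000662). Slc16a1, the lactate transporter MCT1, had 15.95, 14.4 and 18.1 FPKM in APAP livers, against 7.06, 7.53 and 7.04 FPKM in vehicle livers (log2 difference 1.06, adjusted p = 0.000213), and its relatives Slc16a3 and Slc16a6 were higher by 1.28 and 1.68 (adjusted p = 0.045 and 0.0225). Those differences were 0.58 and 0.93 without APAP liver 2, and both calls were lost without vehicle liver 2 or vehicle liver 3 and under quantile normalization. The relatives Slc16a10, Slc16a7 and Slc16a12 fell by 1.23, 1.44 and 1.25.

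Ion pumps and exchangers counted 18 higher and 7 lower of 42 (14 and 14 after scaling), and the count of lower members was 4 without vehicle liver 1 or APAP liver 3 and 11 without APAP liver 1. Slc20a1, a phosphate transporter, had 38.6, 102 and 54.2 FPKM in APAP livers, against 12.99, 13.8 and 16.6 FPKM in vehicle livers (log2 difference 1.98, adjusted p = 0.000738). Aqp8, an aquaporin of hepatocytes, had 38.2, 77.7 and 31.2 FPKM in APAP livers, against 9.47, 9.51 and 11.5 FPKM in vehicle livers (log2 difference 2.06, adjusted p = 0.000825). Ion channels counted 25 higher and 7 lower of 46 tested (16 and 12 after scaling). Kcnk5, a background potassium channel, had 5.36, 5.73 and 5.59 FPKM in APAP livers, against 27.7, 23.7 and 17.8 FPKM in vehicle livers (log2 difference -1.85, adjusted p = 0.000111). Scnn1a, an epithelial sodium channel subunit, fell by 1.22, and Clic1 was higher by 1.86. G protein-coupled receptors counted 27 higher and 15 lower of 68 (19 and 20 after scaling). Gpr39, a zinc-sensing receptor, had 4.20, 13.5 and 10.6 FPKM in APAP livers, against 0.892, 1.34 and 1.12 FPKM in vehicle livers (log2 difference 2.18, adjusted p = 0.000657). F2r, the thrombin receptor, had 7.11, 8.50 and 10.05 FPKM in APAP livers, against 2.87, 3.44 and 2.44 FPKM in vehicle livers (log2 difference 1.28, adjusted p = 0.000137), and P2ry1, a nucleotide receptor, fell by 0.96. RGS, arrestin and G protein genes counted 22 higher and 3 lower of 38 (14 and 5 after scaling) with Rgs16 among the lower members.

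Secreted signals held many large rises. Of 62 growth factors and hepatokines, 35 were higher and 8 lower in APAP livers, with a median log2 difference of 0.54. By at least 2-fold, 19 were higher and 4 lower, against 9.89% and 2.91% of all genes, and after scaling 25 were higher and 13 lower in all. Gdf15, a stress cytokine that lowers appetite, had 21.6, 48.5 and 23.4 FPKM in APAP livers, against 2.09, 3.003 and 2.62 FPKM in vehicle livers (log2 difference 3.08, SE 0.27, adjusted p = 8.15e-05). Angptl8, a lipoprotein lipase regulator, had 94.5, 57.2 and 75.6 FPKM in APAP livers, against 13.6, 10.6 and 16.9 FPKM in vehicle livers (log2 difference 2.38, adjusted p = 8.16e-05). Igfbp1, which binds insulin-like growth factors, had 98.6, 532 and 197 FPKM in APAP livers, against 22.8, 18.4 and 20.3 FPKM in vehicle livers (log2 difference 3.36, adjusted p = 0.000697), and its difference was 2.71 without APAP liver 2. Fgf21, a fasting and stress hepatokine, had 64.03, 27.2 and 44.4 FPKM in APAP livers, against 5.18, 11.6 and 11.9 FPKM in vehicle livers (log2 difference 2.12, adjusted p = 0.00167). Lect2, a liver-made chemotactic protein, fell to 39.7, 27.9 and 30.2 FPKM in APAP livers, against 103, 89.6 and 90.03 FPKM in vehicle livers (log2 difference -1.51, adjusted p = 7.11e-05). Igfals, the carrier of the circulating insulin-like growth factor complex, had 30.1, 12.9 and 12.7 FPKM in APAP livers, against 56.8, 48.1 and 51.8 FPKM in vehicle livers (log2 difference -1.55, adjusted p = 0.00162).

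Several ligands of the epidermal growth factor receptor family, chosen after their values were seen, were barely detected in vehicle livers. Btc, betacellulin, had 2.97, 12.9 and 4.78 FPKM in APAP livers, against 0.272, 0.254 and 0.357 FPKM in vehicle livers (log2 difference 2.40, adjusted p = 0.000839). Hbegf, the heparin-binding ligand, had 1.24, 16.7 and 2.76 FPKM in APAP livers, against 0.270, 0.308 and 0.196 FPKM in vehicle livers (log2 difference 2.08, adjusted p = 0.0161), and its difference was 2.70 without APAP liver 1 and 1.21 without APAP liver 2. Ereg, epiregulin, had 0.754, 6.71 and 3.13 FPKM in APAP livers, against 0.0244, 0.0673 and 0.0227 FPKM in vehicle livers (log2 difference 1.88, adjusted p = 0.00479). Nrg1, neuregulin 1, had 0.538, 5.67 and 3.18 FPKM in APAP livers, against 0.0382, 0 and 0 FPKM in vehicle livers (log2 difference 1.79, adjusted p = 0.00756), and the difference of Nrg1 was 2.38 without APAP liver 1. With Areg, described above, these 5 were under 1 FPKM in every vehicle liver and above it in most APAP livers. The family members Nrg4 and Tgfa were detected in vehicle livers as well. Nrg4 had 11.4, 74.3 and 42.2 FPKM in APAP livers, against 8.32, 7.09 and 12.1 FPKM in vehicle livers (log2 difference 1.78, adjusted p = 0.0242), its groups overlapped and its difference was 2.52 without APAP liver 1 and 1.22 without APAP liver 2, and its call was lost there and also without vehicle liver 1, vehicle liver 2 or APAP liver 3. Tgfa had 5.03, 12.1 and 9.67 FPKM in APAP livers, against 4.25, 4.63 and 4.02 FPKM in vehicle livers (log2 difference 0.84, adjusted p = 0.0144), a call lost after median-ratio scaling and without APAP liver 3. Hgf, the hepatocyte growth factor, had 6.58, 13.3 and 10.5 FPKM in APAP livers, against 3.86, 3.57 and 2.91 FPKM in vehicle livers (log2 difference 1.28, adjusted p = 0.00112).

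**Figure D5:**
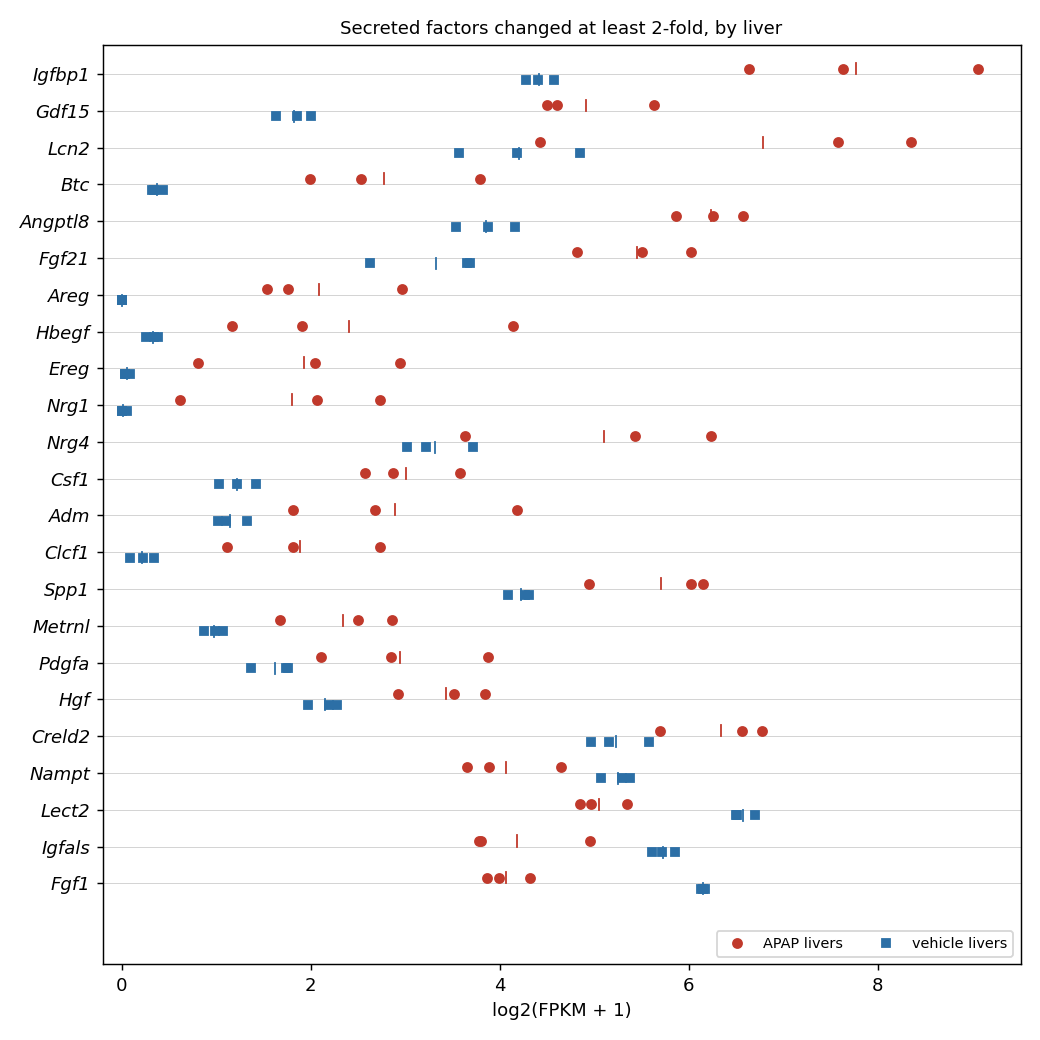
Values of log2(FPKM + 1) by liver for the 23 secreted factors called and changed at least 2-fold, from the largest rise (top) to the largest fall (bottom), with APAP livers as red circles above vehicle livers as blue squares and ticks at the group means. The groups overlap in Lcn2 and Nrg4, and APAP liver values spread widely in Igfbp1, Lcn2 and Hbegf.

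Transforming growth factor beta, BMP and activin genes rose broadly. Of 52 tested, 37 were higher and 3 lower in APAP livers, with a median log2 difference of 0.63, and 13 were higher by at least 2-fold. After scaling 30 were higher and 6 lower, and as deposited the count of lower members was 0 without vehicle liver 1 or vehicle liver 2 or APAP liver 2 or APAP liver 3 and 1 without vehicle liver 3. The activin subunits went different ways. Inhba had 3.99, 11.1 and 8.03 FPKM in APAP livers, against 1.10, 0.740 and 0.799 FPKM in vehicle livers (log2 difference 2.13, adjusted p = 0.000506). Inhbb had 3.50, 21.6 and 8.45 FPKM in APAP livers, against 0.528, 0.724 and 1.56 FPKM in vehicle livers (log2 difference 2.39, adjusted p = 0.00337) with a difference of 1.79 without APAP liver 2. Inhbc, a subunit made mainly in liver, had 42.7, 16.7 and 24.8 FPKM in APAP livers, against 41.8, 52.4 and 43.3 FPKM in vehicle livers (log2 difference -0.78, adjusted p = 0.0353). Fst, follistatin, which neutralises activin, had 1.60, 6.49 and 4.03 FPKM in APAP livers, against 0.223, 0.192 and 0.0612 FPKM in vehicle livers (log2 difference 1.99, adjusted p = 0.000944). Fstl1, a related glycoprotein, had 4.56, 8.67 and 8.39 FPKM in APAP livers, against 1.08, 1.49 and 0.704 FPKM in vehicle livers (log2 difference 1.95, adjusted p = 0.000232). Among the ligands, Tgfb1 was higher by 1.23, Tgfb3 by 2.15 and Bmp4 by 1.51. Smad7, the feedback inhibitor of the pathway, had 7.49, 6.70 and 6.35 FPKM in APAP livers, against 1.38, 1.74 and 1.49 FPKM in vehicle livers (log2 difference 1.63, adjusted p = 0.000265), and Tgif1, a corepressor, was higher by 2.18. The lower calls of Inhbc, Smad9 and Bmp1 were lost when some single livers were left out, as the counts above show.

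Guidance genes, known from axons and also used by vessels and epithelia, counted 24 higher and 2 lower of 32, and 18 and 4 after scaling. Plxnb1, a semaphorin receptor, had 4.79, 16.3 and 11.3 FPKM in APAP livers, against 1.09, 1.03 and 1.06 FPKM in vehicle livers (log2 difference 2.38, adjusted p = 0.000598). Epha2, an ephrin receptor, had 17.8, 44.6 and 35.5 FPKM in APAP livers, against 5.45, 7.83 and 7.03 FPKM in vehicle livers (log2 difference 2.03, adjusted p = 0.000593). Sema3f, a secreted semaphorin, had 4.95, 8.32 and 7.09 FPKM in APAP livers, against 1.60, 1.64 and 1.54 FPKM in vehicle livers (log2 difference 1.56, adjusted p = 0.000147). Sema4g fell by 1.03 and Epha1 by 0.75. Notch, Wnt and Hedgehog genes counted 22 higher and 4 lower of 47 (16 and 9 after scaling), with the Wnt receptors Fzd5 and Fzd4 apart. Fzd5 had 3.43, 4.67 and 3.73 FPKM in APAP livers, against 1.03, 1.12 and 1.46 FPKM in vehicle livers (log2 difference 1.16, adjusted p = 0.000473). Fzd4 had 3.85, 3.75 and 2.74 FPKM in APAP livers, against 9.56, 7.78 and 6.43 FPKM in vehicle livers (log2 difference -0.999, adjusted p = 0.000611).

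Cell surface and matrix genes rose widely. Tetraspanins and related membrane proteins had the highest median of any list, with 21 higher and 1 lower of 29 and a median of 0.77, and 17 and 3 after scaling. Cd63, of endosomes and exosomes, had 13.5, 29.8 and 34.9 FPKM in APAP livers, against 3.42, 4.36 and 2.58 FPKM in vehicle livers (log2 difference 2.52, adjusted p = 0.000317). Cd9 had 17.9, 51.5 and 34.2 FPKM in APAP livers, against 6.01, 6.37 and 7.66 FPKM in vehicle livers (log2 difference 2.10, adjusted p = 0.000776). Emp1 had 2.42, 10.4 and 6.61 FPKM in APAP livers, against 0.366, 0.461 and 0.302 FPKM in vehicle livers (log2 difference 2.28, adjusted p = 0.00173). Tspan12 fell by 0.65. Integrins and focal adhesion genes counted 26 higher and 3 lower of 40 (19 and 6 after scaling), with a median of 0.69. Fermt3, the kindlin of blood cells, had 12.996, 11.4 and 13.4 FPKM in APAP livers, against 1.23, 1.96 and 1.39 FPKM in vehicle livers (log2 difference 2.44, SE 0.14, adjusted p = 1.36e-05). Vcl, vinculin, had 17.2, 41.2 and 26.5 FPKM in APAP livers, against 9.11, 9.69 and 8.66 FPKM in vehicle livers (log2 difference 1.45, adjusted p = 0.00142). Lims2 and Itga4 fell by 0.60 and 0.34.

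Matrix proteases and their inhibitors counted 24 higher and 4 lower of 42, with 16 higher by at least 2-fold, and 19 and 9 after scaling. Mmp13, a collagenase, had 2.37, 2.17 and 3.15 FPKM in APAP livers, against 0.210, 0.142 and 0.183 FPKM in vehicle livers (log2 difference 1.59, adjusted p = 5.73e-05). Mmp14, a membrane-bound protease, had 11.3, 31.5 and 21.8 FPKM in APAP livers, against 5.50, 5.21 and 4.39 FPKM in vehicle livers (log2 difference 1.79, adjusted p = 0.00105). Timp1, a protease inhibitor, had 1.75, 5.17 and 2.71 FPKM in APAP livers, against 0.0665, 0 and 0 FPKM in vehicle livers (log2 difference 1.96, adjusted p = 0.000986). Plaur, the urokinase receptor, had 2.59, 16.9 and 6.29 FPKM in APAP livers, against 0.170, 0.257 and 0.180 FPKM in vehicle livers (log2 difference 2.69, adjusted p = 0.00136), and its difference was 2.09 without APAP liver 2. Adamts1, a proteoglycan-cleaving protease, had 7.28, 39.4 and 17.5 FPKM in APAP livers, against 1.88, 2.69 and 1.60 FPKM in vehicle livers (log2 difference 2.60, adjusted p = 0.00163). Mmp15 and Pcsk4 fell by 0.99 and 1.14.

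Markers of several cell types moved with these surface and matrix genes. Their calls are as deposited, where 47.8% of all genes tested were called higher. The markers were not counted after median-ratio scaling. The 5 monocyte and macrophage markers summed to 62.9 to 161 FPKM in APAP livers and 27.6 to 31.4 FPKM in vehicle livers and were all called higher. The 5 Kupffer cell markers summed to 123 to 135 FPKM in APAP livers and 77.1 to 93.5 FPKM in vehicle livers, with 3 called higher and 0 lower. The 5 neutrophil markers summed to 28 to 443 FPKM in APAP livers and 1.24 to 2.24 FPKM in vehicle livers, with 3 called higher and Ly6g and Mpo under the expression floor. The 3 platelet markers summed to 7.03 to 22.6 FPKM in APAP livers and 2.35 to 2.65 FPKM in vehicle livers, and all 3 were called higher. The 5 sinusoidal endothelial markers summed to 121 to 175 FPKM in APAP livers and 78.4 to 90.7 FPKM in vehicle livers, with all 5 called higher. Some of these differences were small, as in Stab2, at 8.95, 8.76 and 10.1 FPKM in APAP livers, against 7.56, 7 and 6.41 FPKM in vehicle livers. The 5 stellate cell and fibroblast markers summed to 164 to 189 FPKM in APAP livers and 71.1 to 122 FPKM in vehicle livers, with 3 called higher. Cholangiocyte markers summed to 4.39 to 9.3 FPKM in APAP livers and 0.849 to 2.02 FPKM in vehicle livers. Of these, 2 were called higher, Krt7 was under the expression floor and Cftr was at 0 in all 6 livers. T, B and NK cell markers summed to 2.08 to 4.96 FPKM in APAP livers and 0.181 to 0.422 FPKM in vehicle livers. Most of the APAP sum was Cd3e, at 3.55, 1.3 and 3.95 FPKM, the only one of these markers tested. Cd8a, Cd79a, Ms4a1 and Ncr1 were under the expression floor, and Ncr1 overlapped between groups. Of the 5 adipocyte markers, Fabp4 alone was above the expression floor, at 57.4, 162 and 91.6 FPKM in APAP livers, against 16.04, 21.9 and 17.7 FPKM in vehicle livers, while Adipoq, Plin1 and Cfd were under it and Lep was at 0. Pancreatic acinar markers overlapped between groups, at 6.33 to 9.34 FPKM in APAP livers and 7.58 to 9.15 FPKM in vehicle livers, with Cpa1, Pnlip and Cel at 0. The part of these cells in the results was not tested.

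Junction genes counted 24 higher and 7 lower of 44 (17 and 11 after scaling). Cdh1, E-cadherin, which joins epithelial cells, had 3.62, 22.9 and 11.6 FPKM in APAP livers, against 0.734, 0.804 and 0.807 FPKM in vehicle livers (log2 difference 2.65, adjusted p = 0.00176), and its difference was 3.28 without APAP liver 1. Cxadr, an adhesion protein of tight junctions, had 31.1, 65.3 and 50.6 FPKM in APAP livers, against 10.3, 10.9 and 9.80 FPKM in vehicle livers (log2 difference 2.08, adjusted p = 0.000194). Pkp2, a desmosome plaque protein, had 21.4, 32.3 and 27.4 FPKM in APAP livers, against 9.48, 10.2 and 8.33 FPKM in vehicle livers (log2 difference 1.42, adjusted p = 0.000128). Ocln, occludin, had 4.49, 2.91 and 3.25 FPKM in APAP livers, against 8.54, 7.29 and 8.26 FPKM in vehicle livers (log2 difference -1.003, adjusted p = 0.000411). Dsg1c, a desmoglein, had 1.07, 0.370 and 0.383 FPKM in APAP livers, against 6.27, 5.04 and 2.73 FPKM in vehicle livers (log2 difference -1.79, adjusted p = 0.000479).

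Kinesins, dyneins and septins counted 29 higher and 4 lower of 46 (18 and 9 after scaling). Kif2c, a kinesin of the mitotic spindle, had 1.61, 1.01 and 3.97 FPKM in APAP livers, against 0, 0.0775 and 0.0336 FPKM in vehicle livers (log2 difference 1.51, adjusted p = 0.00173), and Dynll1, a dynein light chain, was higher by 1.27.

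DNA replication and repair genes counted 53 higher and 8 lower of 111 (29 and 24 after scaling), close to the background share of rises, and the count of lower members was 5 without vehicle liver 2. Apex1, the abasic site endonuclease, had 31.6, 32.6 and 35.1 FPKM in APAP livers, against 13.98, 15.1 and 14.04 FPKM in vehicle livers (log2 difference 1.15, SE 0.08, adjusted p = 3.01e-05). Ercc1, of nucleotide excision repair, had 3.84, 24.9 and 12.2 FPKM in APAP livers, against 1.35, 1.81 and 1.54 FPKM in vehicle livers (log2 difference 2.21, adjusted p = 0.00411) with a difference of 2.85 without APAP liver 1. Gins4, a replication helicase subunit, and Parp6 fell by 0.43 and 0.39.

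Kinases of the PIM, SGK, DYRK, TRIB, PLK and SIK families and some others counted 41 higher and 5 lower of 62, and 27 and 9 after scaling. Most tested polo-like kinases rose, while Plk5 fell by 0.36. Plk4, of centriole copying, had 3.16, 3.21 and 3.85 FPKM in APAP livers, against 0.268, 0.302 and 0.215 FPKM in vehicle livers (log2 difference 1.80, SE 0.09, adjusted p = 6.54e-06). Plk3 had 50.8, 153 and 95.7 FPKM in APAP livers, against 22.3, 20.99 and 25.9 FPKM in vehicle livers (log2 difference 1.94, adjusted p = 0.00122). Plk2 had 6.54, 20.1 and 9.58 FPKM in APAP livers, against 1.88, 2.09 and 1.62 FPKM in vehicle livers (log2 difference 2.06, adjusted p = 0.000699). Pim1, a survival kinase, had 26.3, 32.2 and 24.6 FPKM in APAP livers, against 3.69, 3.52 and 6.04 FPKM in vehicle livers (log2 difference 2.43, adjusted p = 7.94e-05). Trib1, a pseudokinase scaffold, had 38.04, 72.9 and 46.5 FPKM in APAP livers, against 11.3, 10.2 and 14.9 FPKM in vehicle livers (log2 difference 1.99, adjusted p = 0.000268). The subunits of AMP-activated kinase went apart, with Prkab2 higher by 1.57 and Prkag2 lower at -0.55 (adjusted p = 3.82e-05 and 0.000598). In this list the count of lower members was 3 without vehicle liver 1. Protein phosphatase regulators counted 26 higher and 6 lower of 46 (19 and 12 after scaling). Ppp1r15a, GADD34, which restores translation after stress, had 31.2, 61.96 and 36.9 FPKM in APAP livers, against 5.01, 5.05 and 4.49 FPKM in vehicle livers (log2 difference 2.86, adjusted p = 5.75e-05). Ppp1r10, a nuclear targeting subunit, had 33.9, 34.1 and 32.2 FPKM in APAP livers, against 8.73, 8.29 and 4.94 FPKM in vehicle livers (log2 difference 2.08, adjusted p = 0.000134).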

How the data were processed

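Messenger RNA from 9 mouse livers was sequenced from TruSeq mRNA libraries, per the labels. The authors deposited FPKM values for 36779 transcript models on mm10 under 24541 symbols, and no scaling between libraries is stated. Tools named in the submitters' processing notes are StringTie 1.3.3b, Bowtie2 2.2.6 and FastQC 0.10.0, with neither role nor order. FPKM are not counts and whole reads could not be recovered, so depth is unknown and the number of livers limits precision.

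FPKM was summed per symbol, and symbols averaging 0.5 FPKM or more over 9 livers were tested as log2(FPKM + 1) with limma 3.58.1 in R 4.3.3 (a mean per group, intensity trend, two-sided, Benjamini-Hochberg over 12202 genes, threshold 0.05). On simulated data of this size, 82% of genes changed by 1 and 95% of those changed by 2 on the log2 scale were recovered, with 10 false calls. The simulation changed few genes, gave a gene the same spread in all 9 libraries and held no shift between libraries. In the real data many genes changed, the APAP livers spread more and the median gene was shifted. The simulated figures therefore check the fit and do not give the error rates of this comparison. Labels do not say whether replicates are separate animals, so p-values measure the spread between these samples. Columns without a sample numbered 0. Python 3.11.15, pandas 2.3.3, matplotlib 3.10.9 and the R package data.table (version 1.17.8) were also used.

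The comparison, the gene lists and the rule for named genes were chosen with earlier results of these data known. The rule took the 15 largest rises and falls among descriptively named genes outside the familiar themes (1857 tested genes, matched by symbol patterns), with an adjusted p under 0.05, at least 2-fold change, a mean of 5 FPKM in either group and no overlap, then 3 of each among symbols without a descriptive name, the 5 largest gains and losses in mean FPKM, and up to 2 rises and 2 falls of smallest adjusted p per list, with at least 1 FPKM in the higher group. Not every gene it took in the lists is named, and a few genes and 1 list are not reported here. Alternatives were 3 other scalings, a pseudocount of 0.1, other floors, 6 livers in the fit, weights per library, a replicate block, models under 200 bases left out, and each liver left out.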

Additional observations from a re-analysis of the deposited data

How the results depend on the processing

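The split of calls between higher and lower depended on scaling. Genes higher and lower in APAP livers numbered 5835 and 1845 as deposited, 3852 and 3166 with upper-quartile scaling, 3126 and 3699 with quantile normalization, and 3526 and 3500 with median-ratio scaling. At 2-fold or more, 1207 were higher and 355 lower as deposited, 603 were lower with upper-quartile scaling, 701 higher and 588 lower with quantile normalization, and 794 higher and 673 lower with median-ratio scaling. A pseudocount of 0.1 gave 2043 higher by at least 2-fold, and a floor of 5 FPKM, which tests fewer genes, gave 3392 higher and 733 higher by at least 2-fold. Leaving out each liver in turn gave 5034 to 6189 higher, 1496 to 2246 lower, 932 to 1612 higher and 264 to 513 lower by at least 2-fold. The replicate block gave 5519 higher and 1725 lower, and 1210 and 355 by at least 2-fold. The deviations of same-numbered APAP and vehicle livers correlated at 0.0477, -0.0463 and 0.0306. APAP livers 2 and 3 did not correlate best with the vehicle liver of their own number, and the numbers were not taken as pairs. Of 262 genes taken by the rule, 246 kept their call in every alternative run and 16 did not, among them Ahsg, Pex19, Meg3, Smad9 and Bmp1, and Alb changed sign to 0.21 under quantile normalization. Of 277 further genes checked, some open to the rule and some chosen after their values were seen, 257 kept their call and 20 did not, among them Lcn2, Nrg4, Apoa2 and Inhbc. Counts of members higher or lower in the 60 lists moved by over 1.5 times in 360 cases and by less in 1560. The cause of these changes was not tested. With 3 livers a group and unknown depth, differences of genes near the floor are the least certain.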

Other observations

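The transcript models of a symbol were also compared, since sums hide a change of model. Among 2622 genes with several models and enough signal in both groups, 10 had a model that held over 50 percent of the symbol's FPKM in all 3 APAP livers and a different one in all 3 vehicle livers. For 618 genes no model held that share in all 3 vehicle livers. The shorter model led in APAP livers in 4 of the 10. The clearest was Tef, a circadian leucine zipper factor, whose model of 4240 bases held 76.6, 99.4 and 94.5 percent in APAP livers, against 33.7, 28 and 10.5 percent in vehicle livers, while the gene as a whole fell by 1.53 on the log2 scale. For Sgms1, sphingomyelin synthase, a model of 3257 bases held 60.9, 72.2 and 77.6 percent in APAP livers, against 18.8, 12.4 and 24.8 percent in vehicle livers, and the gene was higher by 1.17. Papss2, which makes the sulfate donor PAPS, showed a switch to a model of 3587 bases, at 60.2, 50.9 and 62.8 percent in APAP livers, against 40.2, 35.4 and 36.8 percent in vehicle livers, and fell by 1.83. The others were Cic, Eif4h, Nab2, Prrc2b, Pwwp2a, Smc5 and Tomm34. Model shares are estimates from short reads and were not tested between groups.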
